A study of Mus musculus with 29 samples.

Results

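The opsins are the light-sensing receptors and retinal-binding relatives of the retina, and 6 of the 24062 genes in the RNA-seq table were taken by name: Opn1sw, Opn1mw, Opn3, Opn4, Rgr and Rrh. Expression was measured in 15 RNA-seq libraries of sorted mouse retinal cells, 3 for each of 5 populations. Accessible chromatin was measured by ATAC-seq, in which a transposase cuts open DNA, in 12 libraries counted over shared regions, 2 for each of 6 populations. Peak calls of 2 further ATAC-seq libraries, from double-sorted green cones, were used for peaks only.

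All bipolar cells came from adult mice of postnatal day 42 to 48 with GFP at 1 copy of Otx2 (Otx2-GFP+/-). The RNA libraries of all bipolar cells (pan-BC) carried that allele alone, whereas ON bipolar cells (ON-BC) and OFF bipolar cells (OFF-BC) came from Otx2-GFP+/- mice that were also Grm6-YFP+/+, a transgene marking ON-BC. OFF-BC were sorted a second time, and pan-BC and ON-BC once. The study gives weakly fluorescent photoreceptors beside the OFF-BC gate as the reason for that second sort. In the RNA libraries, pan-BC thus differed from ON-BC and OFF-BC in mouse line, and OFF-BC differed from the others in number of sorts. Cell type cannot be told apart from these in comparisons between bipolar populations. The labels give Grm6-YFP+/+ for the pan-BC mice of the ATAC libraries as well. Rods (Nrl-eGFP), blue cones (Nrl-eGFP;NrlKO) and green cones (Opn1mw-GFP, ATAC only) were postnatal day 56 libraries re-analyzed from earlier work. Cell class thus cannot be told apart from study, age and reporter line in any comparison of bipolar cells with photoreceptors. Green cones also differed from rods and blue cones in reporter line, so cell type cannot be told apart from line in those comparisons. Blue cones are the photoreceptors of Nrl-/- retinas, which stand in for S cones and are not S cones sorted from a wild-type eye. Nrl, the rod-fate factor removed in those mice, stood at 486 to 764 normalized counts in the blue cone libraries and at 11476 to 16599 in rods.

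Visual opsins are receptors that bind 11-cis-retinal and signal through transducin once light turns the chromophore. Opn1sw (S opsin, short wavelengths) and Opn1mw (M opsin, middle wavelengths) are the cone pigments of the mouse. Opn4 (melanopsin) is the pigment of intrinsically photosensitive ganglion cells and signals through Gq and phospholipase C, Opn3 (encephalopsin) is a non-visual opsin with broad expression, and Rgr and Rrh (peropsin) are retinal-binding relatives best known from the retinal pigment epithelium and, for Rgr, Müller glia.

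A library held 12329548 to 26266746 counted reads for RNA (median 15569580) and 4176776 to 12345845 for ATAC (median 6648830). Values below are normalized counts, that is reads divided by the size factor the authors set for each library. Differences were tested with limma on log2(normalized count + 1), against a log2 fold change of 1, over all 14024 genes or 108448 regions that passed a filter on low counts, and adjusted p-values (Benjamini-Hochberg) below 0.05 were called. The added 1 understates fold changes of genes with few reads. Of the 6 opsins, 5 passed the filter and Opn4 did not. Replicate 3 of OFF-BC stood apart from the other OFF-BC libraries for cone transcripts, among other genes, and results resting on it are given with and without it. The set divided into cone pigments with large counts and the other 4 opsins, which stayed at or below 102 normalized counts in every library.

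**Figure D1:**
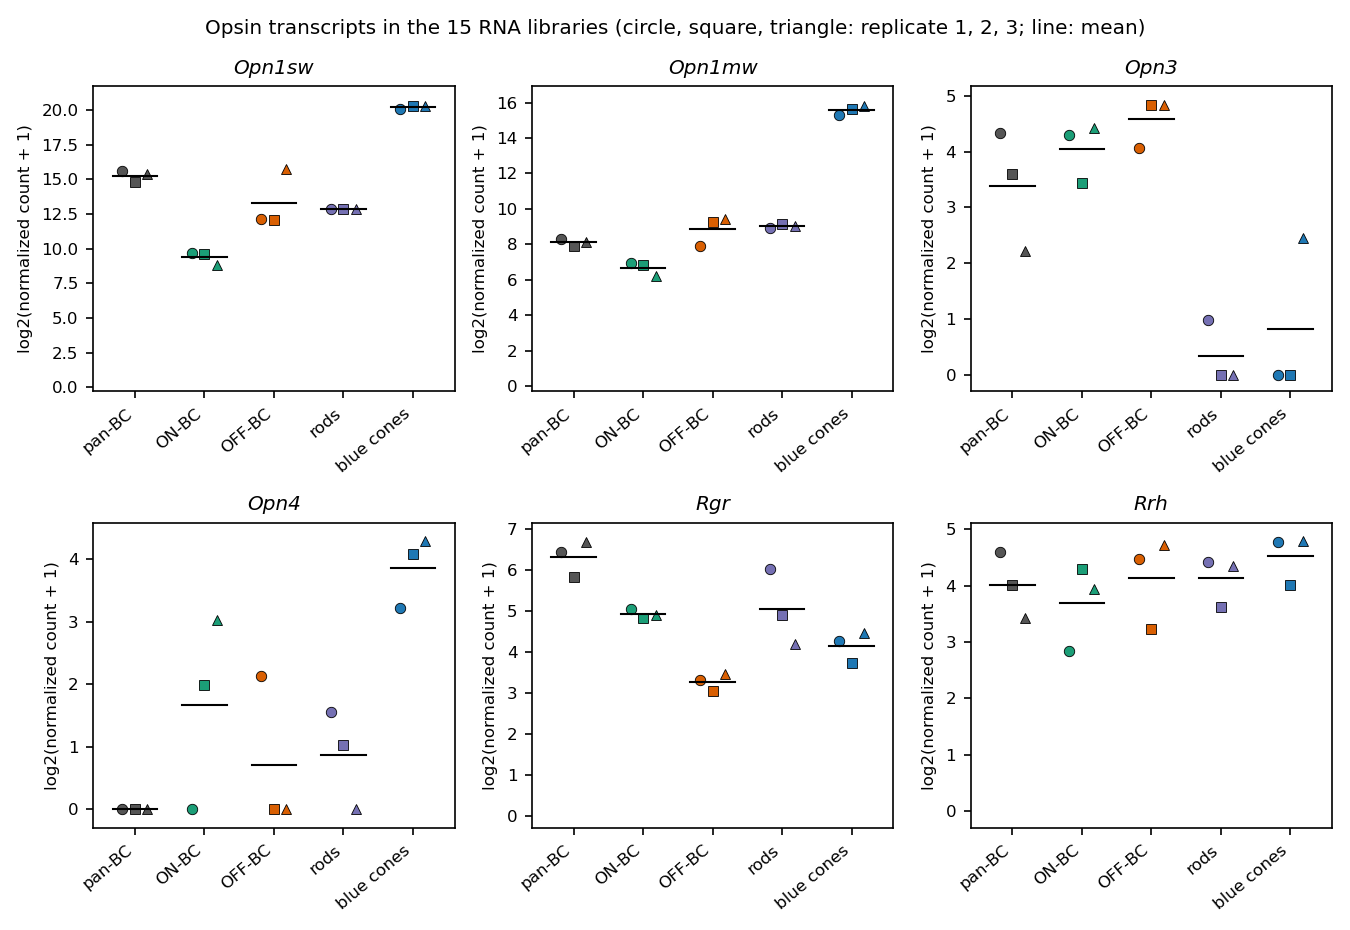
Normalized counts of the 6 opsins on a log2(normalized count + 1) axis, with 1 point per RNA library, marker shape giving the replicate and a line at the mean of the 3 libraries. Opn1sw spans 447 to 1302223 normalized counts, Opn3 and Opn4 reach 0 in some libraries, and OFF-BC replicate 3 stands above the other OFF-BC libraries for Opn1sw.

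Opn1sw was the opsin with the most reads in every population. In blue cones it stood at 1108422, 1302223 and 1256124 normalized counts in replicates 1 to 3, a mean of 1222256 ± 101242 (SD, n = 3) that made up 6.44% of all reads. The pan-BC libraries held 50740, 28147 and 42310 normalized counts of Opn1sw, the ON-BC libraries 822, 772 and 447, and the rods 7389, 7590 and 7453. The OFF-BC libraries held 4477, 4314 and 55813, so replicate 3 lay above every pan-BC library while the others lay below rods. No pan-BC library overlapped rods, ON-BC or blue cones, and every ON-BC library lay below every other library. The order of the means was blue cones, pan-BC, OFF-BC, rods and ON-BC. OFF-BC libraries lay on either side of the pan-BC libraries, and the place of OFF-BC in that order rested on replicate 3.

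Opn1mw followed at a lower level. The blue cone libraries held 41111, 50465 and 58221 normalized counts, a mean of 49932 ± 8568 (SD, n = 3) or 0.263% of reads. Rods held 491, 573 and 528, pan-BC 316, 243 and 277, ON-BC 122, 115 and 72.8, and OFF-BC 237, 619 and 691. OFF-BC therefore overlapped rods and pan-BC for Opn1mw, while ON-BC lay below every other library and blue cones above. Per kilobase of exon, Opn1sw exceeded Opn1mw 10.9-fold to 13.7-fold in blue cones, 6.72-fold to 7.63-fold in rods and 3.11-fold to 3.42-fold in ON-BC. In pan-BC the same ratio was 81.4, 58.7 and 77.5, above all 12 other libraries, and in OFF-BC it was 9.57, 3.53 and 40.9. The balance of the cone pigments thus differed between bipolar libraries more than between blue cones and rods, and these ratios were not tested.

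**Figure D2:**
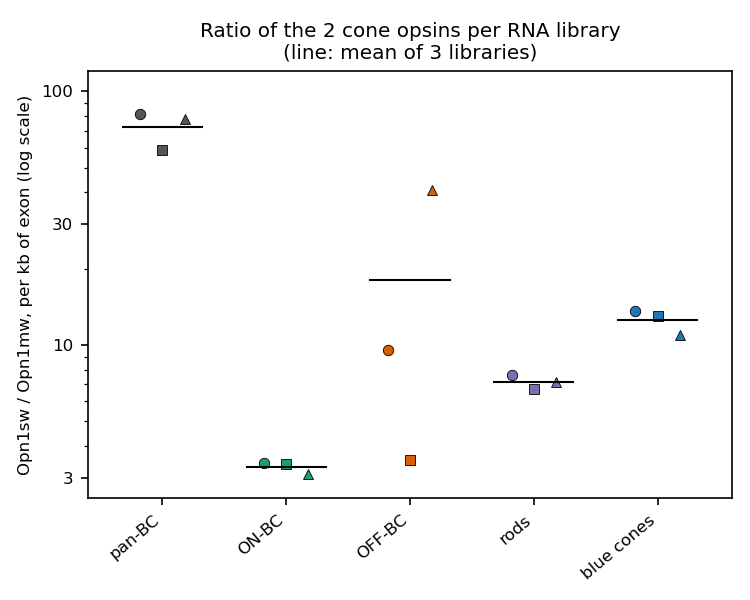
Ratio of Opn1sw to Opn1mw normalized counts per kilobase of exon in each RNA library, on a log axis, with a line at the mean of 3 libraries. The pan-BC libraries sit at 58.7 to 81.4, the ON-BC libraries at 3.11 to 3.42, and OFF-BC replicate 3 at 40.9 against 9.57 and 3.53 in the other OFF-BC libraries.

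Rods and pan-BC were each compared with blue cones, and both pigments were lower in either. Between rods and blue cones, 2 of the 5 tested opsins were called, both higher in blue cones, beside 15.9% of all tested genes called in either direction and 11.3% higher in blue cones. The log2 difference (rods minus blue cones) was -7.35 (SE 0.64, adjusted p = 3.73e-07) for Opn1sw and -6.54 (SE 0.30, adjusted p = 8.69e-11) for Opn1mw. Between pan-BC and blue cones, 4 of the 5 were called, 2 in each direction, where 36.3% of all tested genes were called, 22.7% higher in pan-BC and 13.7% higher in blue cones. Opn1sw differed by -4.96 (SE 0.64, adjusted p = 3.79e-05) and Opn1mw by -7.47 (SE 0.30, adjusted p = 1.40e-11) on the log2 scale. These calls of Opn1sw and Opn1mw held under each alternative and each left-out library. Opn3 and Rgr, the other opsins called there, were lost in some fits and are described below.

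Between pan-BC and rods the cone pigments parted. Opn1sw was 2.39 higher in pan-BC on the log2 scale (SE 0.64), which missed the threshold (adjusted p = 0.0525), although every pan-BC library exceeded every rod library. It was called when libraries were scaled by their totals (adjusted p = 0.0200) and with edgeR on the recovered reads (adjusted p = 0.0176). Opn1mw went the other way, at -0.93 (SE 0.30, adjusted p = 0.986), with each pan-BC library below each rod library. The single opsin called between pan-BC and rods was Opn3, described below, where 43.6% of all tested genes were called and 27.8% were higher in pan-BC.

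Within the bipolar cells, OFF-BC exceeded ON-BC for both cone pigments, the only opsins called of 5 tested, against 6.55% of all tested genes in either direction and 3.6% higher in OFF-BC. The log2 difference (ON-BC minus OFF-BC) was -3.96 for Opn1sw (SE 0.64, adjusted p = 0.00332) and -2.20 for Opn1mw (SE 0.30, adjusted p = 0.00895). Without OFF-BC replicate 3 the difference for Opn1sw was -2.74 (adjusted p = 0.000104), and it was called in all 15 fits. That for Opn1mw fell to -1.92 without OFF-BC replicate 3 (adjusted p = 0.0600), and was likewise not called without OFF-BC replicate 2 (adjusted p = 0.0624) or ON-BC replicate 3 (adjusted p = 0.0636).

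Pan-BC exceeded ON-BC for Opn1sw by 5.90 on the log2 scale (SE 0.64, adjusted p = 0.000152), the only opsin called there, beside 1.06% of all tested genes and 0.898% higher in pan-BC. Against OFF-BC, pan-BC was 1.94 higher for Opn1sw (SE 0.64, adjusted p = 1) over all libraries and 3.16 higher without OFF-BC replicate 3 (adjusted p = 2.11e-05). A single library thus decided that call. Opn1mw differed by 1.45 (pan-BC minus ON-BC, adjusted p = 1) and by -0.75 (pan-BC minus OFF-BC, adjusted p = 1), neither called.

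The blue cone mean of Opn1sw was 56.8-fold that of OFF-BC, or 278-fold without OFF-BC replicate 3, and the mean of Opn1mw 96.9-fold, or 117-fold without it. The rod mean was 0.347-fold that of OFF-BC for Opn1sw and 1.03-fold for Opn1mw. The study set aside, in its comparison of ON-BC and OFF-BC, genes over 16-fold higher in photoreceptors than in the enriched bipolar type. Both cone pigments pass that fold against blue cones and neither passes it against rods. Levels in bipolar libraries were therefore set beside other cone transcripts. As a share of the blue cone mean, pan-BC held 3.31% of Opn1sw (range 2.303% to 4.15%) and 0.558% of Opn1mw (range 0.487% to 0.633%). For Arr3, the cone arrestin, the pan-BC share was 3.46%, for Pde6h, the inhibitory subunit of cone phosphodiesterase, 4.93%, for Pde6c, its catalytic subunit, 0.259%, and for Gnat2, cone transducin, 5.60%. Cone transcripts did not keep 1 common share in pan-BC, with Opn1mw and Pde6c low and Opn1sw, Arr3 and Pde6h several times higher.

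ON-BC held 0.0557% of the blue cone mean for Opn1sw, 0.206% for Opn1mw, 0.208% for Arr3, 0.265% for Pde6h, 0.0354% for Pde6c and 2.01% for Gnat2. In OFF-BC the shares were 1.76% for Opn1sw, 1.03% for Opn1mw, 3.87% for Arr3, 5.76% for Pde6h, 0.505% for Pde6c and 10.5% for Gnat2. Without OFF-BC replicate 3 they were 0.360%, 0.857%, 1.22%, 1.59%, 0.146% and 9.30% in the same order. Of these shares only those of Opn1mw and Gnat2 stayed within 1.5 times. Among other cone partners, Gngt2 went from 52.8% to 47.7%, Gnb3 from 6.38% to 5.34%, Cngb3 from 7.79% to 7.47% and Slc24a2 from 15.6% to 13.0%. Cnga3 fell from 0.498% to 0.0859%. The part of photoreceptor RNA in the bipolar values of the cone pigments was not tested. In bulk libraries such as these, fewer cells of a type and less RNA per cell cannot be told apart.

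**Figure D3:**
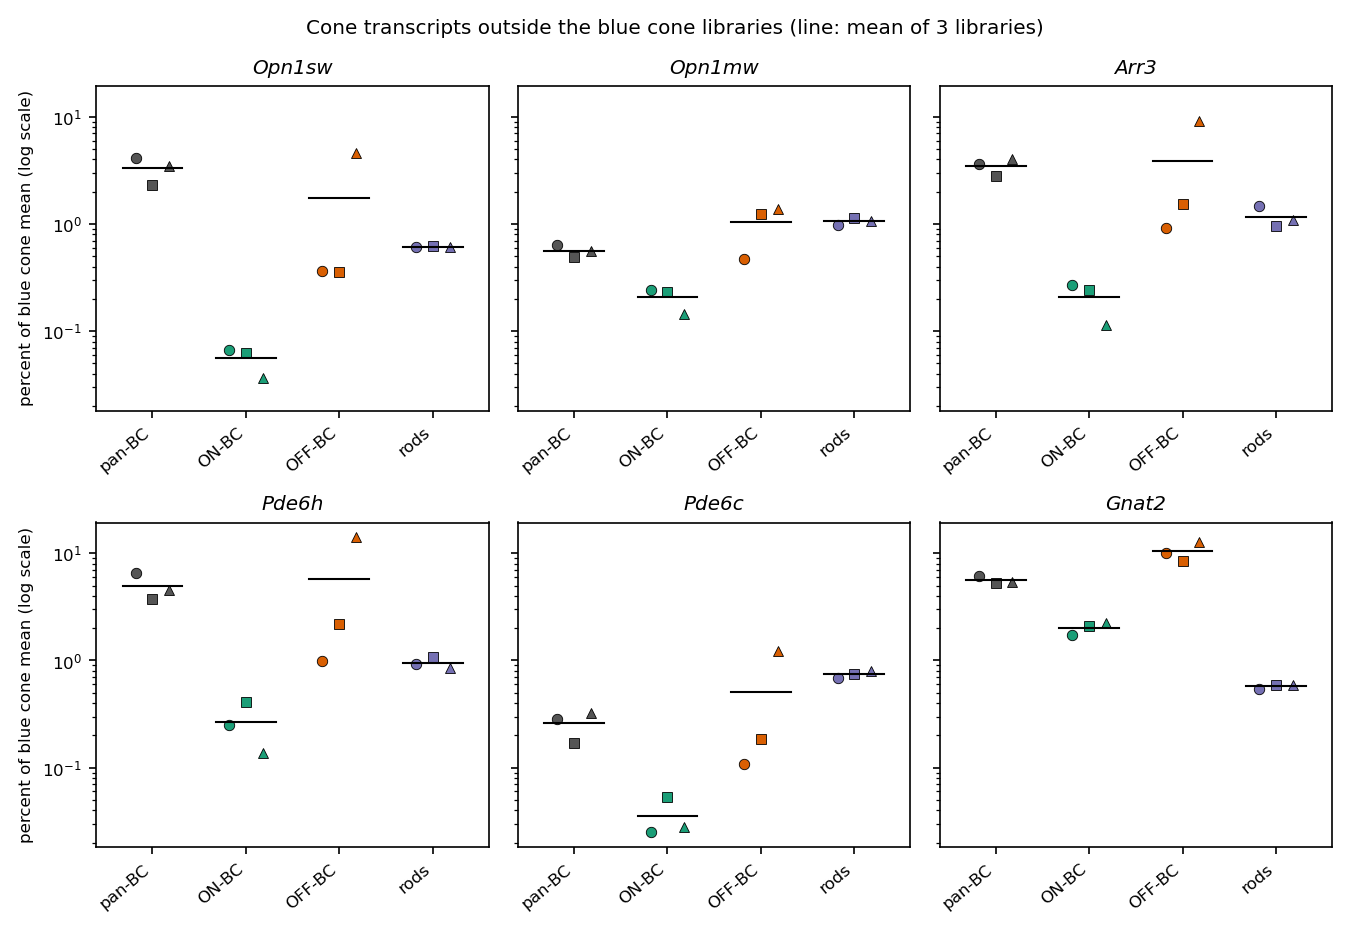
Normalized counts of Opn1sw, Opn1mw and 4 cone partners in each bipolar and rod library, as a percent of the blue cone mean on a log axis, with a line at the mean of 3 libraries. ON-BC is lowest for 5 of the 6 genes, and OFF-BC replicate 3 stands above the other OFF-BC libraries for Opn1sw, Arr3, Pde6h and Pde6c but by little for Opn1mw and Gnat2.

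OFF-BC replicate 3 held 12.7-fold more Opn1sw than the mean of replicates 1 and 2, the largest log2 difference among the 3389 genes with an OFF-BC mean of at least 1000 and the 16th of all 14024 genes. Opn1mw was 1.61-fold higher there. Of the cone partners, Arr3 was 2.95 higher on the log2 scale, Pde6h 3.25, Pde6c 3.11 and Cnga3, the cone channel subunit, 3.96, whereas Gnat2 was 0.47 higher and Gngt2, a cone transducin subunit, 0.42. Sag, the rod arrestin, also found in blue cones, was 2.55 higher and Gnat1, rod transducin, 0.26. The largest differences of all tested genes were those of Pttg1 (6.58) and Tuba1c (5.94), which are not on the cone list, and the rod gene Pde6g was 1.84 higher. The excess in that library therefore covered Opn1sw, a part of the cone transcripts and other genes, and not Gnat2 or Gnat1 to a like degree.

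The partners of the cone pigments, a list of 9 cone phototransduction genes, were compared in the same way. Between rods and blue cones all 9 were higher in blue cones, where 11.3% of all tested genes were. Between pan-BC and blue cones 8 of 9 were higher in blue cones, where 13.7% of all tested genes were. The median log2 difference there was -4.35, against 0.16 over all tested genes. Between ON-BC and OFF-BC, 6 of 9 were higher in OFF-BC (3.6% of all tested genes) and 1 in ON-BC (2.95%). The median was -2.37, against -0.02 over all genes. The gene higher in ON-BC was Gnb3, at 83169 to 108739 normalized counts in ON-BC and 8977 to 18240 in OFF-BC. The study describes Gnb3 as needed for ON bipolar cell function and for cone phototransduction, so it is not a cone gene alone. Between pan-BC and rods 5 of 9 were higher in pan-BC (27.8% of all tested genes) and none in rods (15.8%). The median was 3.22, against 0.21 over all genes, whereas neither cone pigment was called there. Between pan-BC and OFF-BC 1 of 9 was higher in pan-BC, where 2.65% of all tested genes were (median -0.22, against -0.02). Between pan-BC and ON-BC 3 of 9 were higher in pan-BC, where 0.898% of all tested genes were, and none in ON-BC (median 1.88, against 0.02). Arr3 stood at 782, 1294 and 7782 normalized counts in OFF-BC and at 229, 205 and 96.4 in ON-BC, a log2 difference of -3.58 (SE 0.56, adjusted p = 0.00306). Gnat2 stood at 16557, 13813 and 21002 in OFF-BC and at 2794, 3446 and 3631 in ON-BC, a difference of -2.37 (SE 0.15, adjusted p = 4.87e-06). The OFF-BC libraries agreed more closely for Gnat2 than for Arr3, Pde6h or the S opsin.

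Rod partners were taken as a further list. Of 10 rod phototransduction genes, 4 were higher in ON-BC (2.95% of all tested genes) and none in OFF-BC (3.6%), with a median log2 difference of 1.46 against -0.02 over all genes. Their summed normalized counts were 28045, 27761 and 32651 in the ON-BC libraries and 46839, 17415 and 53680 in those of OFF-BC, which overlapped. All 10 were higher in rods than in pan-BC, where 15.8% of all tested genes were. Gnat1 stood at 3613 to 5244 normalized counts in ON-BC and at 268 to 443 in OFF-BC. Among 8 genes that serve rods and cones alike, such as guanylate cyclases and recoverin, 1 was higher in OFF-BC than in ON-BC. That compares with 3.6% of all tested genes. None was higher in ON-BC (2.95%). The 9 regulators of opsin transcription listed, among them Crx, Otx2, Nrl and Thrb, held 6 genes higher in rods than in pan-BC (15.8% of all tested genes), 5 higher in blue cones than in pan-BC (13.7%), and 2 with ON-BC above OFF-BC (2.95%). Summed normalized counts of 5 cone markers ranged from 347478 to 389184 in blue cones, with none at 0. The sums were 16313 to 19881 for pan-BC, 25051 to 48209 for OFF-BC, 4169 to 5038 for ON-BC and 2757 to 2987 for rods. Cone markers were thus lower in ON-BC than in OFF-BC, as the cone pigments were.

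Among all genes, those whose log2 values followed Opn1sw most closely over the 15 libraries were Fabp7 (Pearson's r = 0.991), Arr3 (r = 0.989) and Pde6h (r = 0.982), and those following Opn1mw were Osgep (r = 0.983), Pde6c (r = 0.981) and Sh3bp4 (r = 0.980). The libraries fall into 5 populations, so these values mostly describe population means. Fabp7, a fatty acid-binding protein, stood at 3666 to 4695 normalized counts in blue cones and at 0 to 4.90 in ON-BC. In OFF-BC it stood at 26.8, 21.6 and 213, highest in replicate 3. Fabp7 was picked by its correlation with Opn1sw over these same libraries, so a likeness to Opn1sw within OFF-BC is no separate support.

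Opn3 was higher in bipolar cells than in photoreceptors, with overlap in 1 library on each side, pan-BC replicate 3 and blue cone replicate 3. The pan-BC libraries held 19.1, 11.1 and 3.67 normalized counts, ON-BC 18.6, 9.80 and 20.5, and OFF-BC 15.6, 27.6 and 27.6. Rods held 0.970, 0 and 0 (1 read in 58189184), and blue cones 0, 0 and 4.44 (6 reads in 75778985). Opn3 passed the filter on low counts only through its bipolar libraries, since no photoreceptor library held over 6 reads. It was thus tested because of the group where it was high, and the calls are no separate support for that direction. The log2 difference from rods (pan-BC minus rods) was 3.06 (SE 0.67, adjusted p = 0.00960) and that from blue cones was 2.57 (SE 0.67, adjusted p = 0.0459). Without pan-BC replicate 1 the first was not called (adjusted p = 0.0561), and the second was called in only 7 of 14 fits, with adjusted p up to 0.193. Between bipolar types Opn3 did not differ beyond the spread of the libraries (ON-BC minus OFF-BC -0.53, SE 0.67, adjusted p = 1). The table does not list any value above 27.6 normalized counts for Opn3, so it is a transcript near the lower end of what these libraries register, at an RPKM of 0.422 in pan-BC and 0.858 in OFF-BC.

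Opn4 had too few reads to be tested with the other genes. Blue cones held 8.27, 15.9 and 18.5 normalized counts (11, 21 and 25 reads), the only population with reads in each library above those of all others. In the 42865897 pooled reads of pan-BC there was no read of Opn4, which allows up to 0.0861 RPM (reads scaled to library size) by the exact Poisson 95% interval. Blue cones held 0.752 RPM (interval 0.570 to 0.975 by the same method, counting error only). The ON-BC libraries held 0, 2.94 and 7.18 normalized counts, OFF-BC 3.35, 0 and 0, and rods 1.94, 1.02 and 0. With no filter on low counts, the log2 difference of Opn4 between pan-BC and blue cones was -3.86 (SE 0.71, adjusted p = 0.00251), and the difference between rods and blue cones was -3.00 (SE 0.71, adjusted p = 0.0513).

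Ganglion cell markers were set beside Opn4, since melanopsin is known from those cells. Their sum over 8 genes was 367 to 389 normalized counts in pan-BC, 269 to 322 in ON-BC and 155 to 212 in blue cones. The sum was 62.6 to 119 in OFF-BC and 37.8 to 84.3 in rods. The bipolar population with the most Opn4 reads, ON-BC with 10, had the second highest sum, after pan-BC with no read. In blue cones the markers Pou4f2 and Thy1 were at 0 in every library. Both were also at 0 in rods, and Pou4f2 was at 0 in OFF-BC. Of 5 ganglion cell markers tested, 3 were higher in pan-BC than in blue cones (22.7% of all tested genes). In blue cones 1 was higher, Pou4f1 (13.7%), with a difference of -4.62 (pan-BC minus blue cones, SE 0.66, adjusted p = 0.000118). Pou4f1 was also higher in blue cones than in rods (rods minus blue cones -5.81, SE 0.66, adjusted p = 1.34e-05), where 11.3% of all tested genes were. The part of ganglion cell RNA in the Opn4 values was not tested. Of the 7 genes of the melanopsin cascade, 5 were tested. Plcb4, the phospholipase C of that pathway, stood at 2856 to 3552 normalized counts in pan-BC, 1312 to 1671 in blue cones and 481 to 522 in rods, and Trpc7, a channel it opens, at 519 to 1144 in bipolar libraries and at most 7.40 in photoreceptors. Trpc7 differed between pan-BC and rods by 8.89 on the log2 scale (SE 0.43, adjusted p = 3.64e-11). Plcb4 and Trpc7 were thus high in libraries with no or few Opn4 reads, and neither differed between ON-BC and OFF-BC past the threshold (adjusted p = 1 for each).

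Rgr was highest in pan-BC, at 85.1, 55.5 and 102 normalized counts. ON-BC held 31.99, 27.4 and 28.7, OFF-BC 8.94, 7.21 and 9.93, blue cones 18.1, 12.1 and 20.7, and rods 64.0, 28.7 and 17.3. Pan-BC overlapped rods, where replicate 1 was high, and no other population. Pan-BC exceeded OFF-BC by 3.04 on the log2 scale (SE 0.41, adjusted p = 0.00363), the only opsin called there beside 3.37% of all tested genes and 2.65% higher in pan-BC, and this held in all 14 fits. Pan-BC exceeded blue cones by 2.17 (SE 0.41, adjusted p = 0.0178), which was lost without pan-BC replicate 1 (adjusted p = 0.0529), pan-BC replicate 3 (adjusted p = 0.0758) or blue cone replicate 2 (adjusted p = 0.0745). The difference between ON-BC and OFF-BC was 1.66 (SE 0.41, adjusted p = 0.628), with every ON-BC library above every OFF-BC library.

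The gene nearest to Rgr over the 15 libraries was Ttr (r = 0.884), transthyretin, a transcript abundant in the retinal pigment epithelium, followed by Abcb9 (r = 0.851) and Asb1 (r = 0.828). Ttr stood at 72.3, 40.4 and 63.6 normalized counts in pan-BC, at 27.9, 10.8 and 5.13 in ON-BC, and at 22.3, 30.7 and 3.24 in rods. It was at most 2.24 in OFF-BC and at most 5.31 in blue cones. Among the rods replicate 3 was lowest for both genes, while replicate 1 was highest for Rgr (64.0) and replicate 2 for Ttr. Ttr was picked by its correlation with Rgr over these same libraries, so their likeness is no separate support. Summed over 7 markers of the pigment epithelium, pan-BC held 176 to 285, blue cones 207 to 212, rods 117 to 178, ON-BC 99.0 to 164 and OFF-BC 42.0 to 92.7, and the defining gene Lrat, the retinol acyltransferase, was at 12.8 or below in every library and at 0 in rods. Of 6 markers tested, with Ttr on that list, 1 was higher in pan-BC than in OFF-BC (2.65% of all tested genes). Their median log2 difference was 2.21 (pan-BC minus OFF-BC), against -0.02 over all genes. Between pan-BC and blue cones 2 were higher in each (22.7% and 13.7% of all tested genes), with a median of 0.53 against 0.16. Müller glia markers (7 genes) summed to 2687 to 3636 in OFF-BC, 1840 to 3227 in blue cones, 1956 to 2588 in pan-BC, 1257 to 1494 in ON-BC and 1019 to 1607 in rods. Of these 7 none was called between pan-BC and OFF-BC, and their median log2 difference was 0.94 (pan-BC minus OFF-BC), opposite in direction to the sums. The part of pigment epithelium or glial RNA in the Rgr values was not tested.

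Rrh passed the test in no comparison. Pan-BC held 23.4, 15.1 and 9.79 normalized counts, ON-BC 6.19, 18.6 and 14.4, OFF-BC 21.2, 8.41 and 25.4, rods 20.4, 11.3 and 19.5, and blue cones 26.3, 15.2 and 26.6, with every population overlapping every other. The largest difference was -0.51 on the log2 scale (pan-BC minus blue cones, SE 0.49, adjusted p = 1). The gene most like it was Alkbh3 (r = 0.809), whose means lay between 608 and 710 in all 5 populations.

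Genes that handle the retinoid chromophore, 12 in the list, held 11 that were tested. Between pan-BC and rods 2 were higher in pan-BC, where 27.8% of all tested genes were, and 4 in rods, where 15.8% were. Of the same genes, 2 were higher in ON-BC (2.95% of all tested genes) and 1 was higher in OFF-BC (3.6%) when these were compared. Rdh5, an 11-cis-retinol dehydrogenase, stood between 27.6 and 147 normalized counts and Rlbp1, the retinal-binding protein CRALBP, between 54.1 and 356 across the 15 libraries, and neither passed the test in any comparison.

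Chromatin openness was measured over 200 bp regions, of which 25 had an opsin start as the nearest transcription start, 7 for Opn1sw, 4 for Opn1mw, 6 each for Opn4 and Rgr, and 1 each for Opn3 and Rrh. Coordinates are those of GRCm38, and regions are named by the distance of their centre from the start. Openness at the cone opsin promoters was low in most bipolar libraries and high in cones, with OFF-BC at Opn1sw as the exception.

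To show the letters behind those regions, the 250 bases before the start of Opn1sw, Opn1mw and Rgr are printed 5′ to 3′ on the strand of the gene, with the intergenic region centred at -3852 bp from the start of Opn1mw, which was open in all photoreceptors. All are RefSeq sequence of GRCm38.p6, in which all 6 opsins were found. Capitals mark TAATC or GATTA, the core bound by K50 homeodomains such as CRX and OTX2, and TAATTG or CAATTA, a Q50 homeodomain core. The windows are chr6:29380514-29380763 (minus strand) for Opn1sw, chrX:74127216-74127465 (plus strand) for Opn1mw, chr14:37049015-37049264 (minus strand) for Rgr and chrX:74123515-74123714 (plus strand) for the upstream region.
Opn1sw promoter: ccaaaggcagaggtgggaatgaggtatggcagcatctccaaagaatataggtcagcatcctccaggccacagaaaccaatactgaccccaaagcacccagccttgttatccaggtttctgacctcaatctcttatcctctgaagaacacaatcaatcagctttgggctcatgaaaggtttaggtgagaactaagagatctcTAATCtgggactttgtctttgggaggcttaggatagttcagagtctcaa
Opn1mw promoter: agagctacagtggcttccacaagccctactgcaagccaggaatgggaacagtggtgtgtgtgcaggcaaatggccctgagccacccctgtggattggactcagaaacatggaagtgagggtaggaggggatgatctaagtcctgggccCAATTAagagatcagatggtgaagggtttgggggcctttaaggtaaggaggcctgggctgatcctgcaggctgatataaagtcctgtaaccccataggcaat
Rgr promoter: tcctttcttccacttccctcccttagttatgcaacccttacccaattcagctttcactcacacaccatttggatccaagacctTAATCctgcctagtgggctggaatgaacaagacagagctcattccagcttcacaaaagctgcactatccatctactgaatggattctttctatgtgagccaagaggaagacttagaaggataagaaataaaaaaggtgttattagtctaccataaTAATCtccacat
Opn1mw upstream region: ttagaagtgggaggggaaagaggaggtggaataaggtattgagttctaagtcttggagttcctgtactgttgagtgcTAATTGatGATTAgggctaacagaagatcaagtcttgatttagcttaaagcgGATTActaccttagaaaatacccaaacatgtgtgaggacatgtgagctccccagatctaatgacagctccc

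The Opn1sw window held TAATC with its first base at position -49 from the start, in a gene of 5 exons at chr6:29376671-29380513. The Opn1mw window (gene of 6 exons at chrX:74127466-74150756) held no TAATC but TAATTG on the reverse strand at -102. The Rgr window (gene of 7 exons at chr14:37034909-37049014) held TAATC at -167 and -12, the former as the longer TAATCC. On either strand, 19.8% of 32851 RefSeq promoter windows of this length held TAATC, 6.25% TAATCC and 7.17% TAATTG. The region upstream of Opn1mw held TAATCC at base 129 and TAATTG at base 78 of its 200, where 21.8% and 6.88% of all 110715 regions did. Of the 25 opsin regions 10 held TAATC, a share close to the 40.6% of all regions, and 5 held TAATCC, which overlaps TAATC. Matches are letters and not measured binding.

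The region at the Opn1sw start, centred at -59 (chr6:29380473-29380672), stood at 242 and 221 normalized counts in blue cones, 121 and 99.99 in green cones and 112 and 106 in OFF-BC. Pan-BC held 22.4 and 23.9, ON-BC 11.9 and 2.93, and rods 10.9 and 6.10. OFF-BC thus reached the range of green cones, and no ON-BC, pan-BC or rod library overlapped it. ON-BC was lower than OFF-BC by a log2 difference of -3.95 (SE 0.44, adjusted p = 0.000352), which held in all 13 fits. Over the 25 opsin regions 2 were called between ON-BC and OFF-BC, both more open in OFF-BC, beside 7.39% of all regions in either direction and 2.8% more open in OFF-BC.

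For RNA, pan-BC held more Opn1sw transcript than OFF-BC replicates 1 and 2 and less than OFF-BC replicate 3 (55813 normalized counts). The RNA difference between pan-BC and OFF-BC was not called over all libraries. The Opn1sw promoter was less open in pan-BC than in OFF-BC. The assays used different animals, with Grm6-YFP in the pan-BC mice for ATAC only, and this contrast of assays was not tested. As a percent of the blue cone mean, OFF-BC openness was 47.0% at the Opn1sw start, against 16.4% at that of Arr3, 19.1% at that of Pde6h and 29.95% at the region centred at -336 from that of Gnat2. ON-BC stood at 3.21% for Opn1sw, 4.02% for Arr3, 0% for Pde6h and 3.94% for Gnat2. At a second Gnat2 region, centred at -23, OFF-BC stood at 17.6% and ON-BC at 16.6%. The other partner regions were thus also higher in OFF-BC than in ON-BC and this one was nearly equal, each with a smaller OFF-BC share than that of Opn1sw, and the part of cone chromatin in the OFF-BC libraries was not tested.

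Rods were less open than blue cones at the Opn1sw start by -4.66 (SE 0.44, adjusted p = 7.75e-06) and less open than green cones by -3.60 (SE 0.44, adjusted p = 0.000291). Pan-BC was less open than blue cones by -3.27 (SE 0.44, adjusted p = 0.000312). Of the 25 opsin regions, 7 were called between rods and blue cones, each more open in blue cones, where 10% of all regions were called and 8.56% were more open in blue cones. Between rods and green cones 4 were called, each more open in green cones, where 11.2% of all regions were called and 10.9% were more open in green cones. Between pan-BC and rods, 10 were called (51.6% of all regions), 4 more open in pan-BC (40.3% of all regions) and 6 more open in rods (11.2%). Between pan-BC and blue cones 9 were called (35.9%), 2 more open in pan-BC (28.8%) and 7 more open in blue cones (7.13%). The median of all regions was shifted towards pan-BC by 1.16 against rods and 0.54 against blue cones on the log2 scale.

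**Figure D4:**
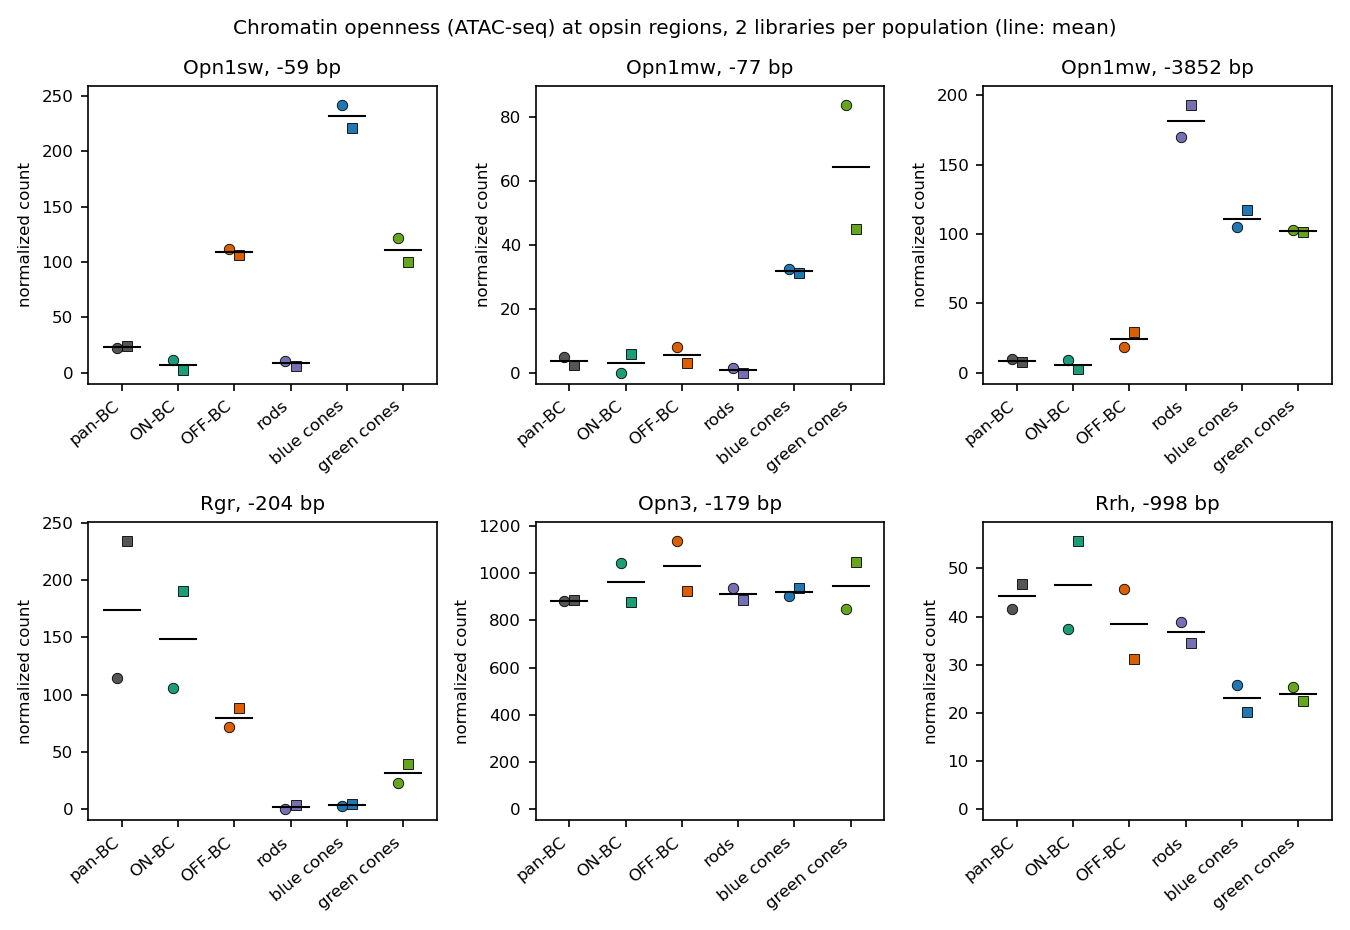
Normalized ATAC-seq counts at 6 opsin regions, named by the distance of the region centre from the transcription start, with 1 point per library and a line at the mean of 2. At Opn1sw -59 the OFF-BC points (112 and 106) lie beside green cones and far above ON-BC (11.9 and 2.93), and Opn3 -179 stays between 846 and 1134 in all libraries.

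The Opn1mw start, at -77 (chrX:74127290-74127489), was most open in green cones at 83.8 and 45.1 normalized counts, followed by blue cones at 32.4 and 31.1. All other libraries lay at 8.08 or below, rods at 1.56 and 0. Rods were less open than green cones by -5.29 (SE 0.85, adjusted p = 0.00119), and than blue cones by -4.35 (SE 0.85, adjusted p = 0.00811), the latter in 9 of 12 fits. Only green cones carried Opn1mw-GFP, so cell type and reporter line cannot be told apart in comparisons with them. Blue and green cones did not differ past the threshold here (-0.93, SE 0.85, adjusted p = 1) or at Opn1sw (1.06, SE 0.44, adjusted p = 1). The green cone libraries held 222 and 138 normalized counts at the promoter of Gnat1, where rods held 792 and 748 and blue cones 2.59 and 1.45, so signal at a rod promoter was present in them.

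The region at -3852 from the Opn1mw start showed another order. Rods were highest there at 170 and 193 normalized counts, blue cones held 105 and 117, green cones 103 and 101.4, OFF-BC 18.9 and 29.2, pan-BC 9.60 and 7.98, and ON-BC 8.96 and 2.93. Pan-BC was less open than rods by -4.22 (SE 0.40, adjusted p = 1.93e-06) and than blue cones by -3.52 (SE 0.40, adjusted p = 6.17e-05). Rods, at 1.56 and 0 over the Opn1mw start, were thus above both cone types here, and the difference between rods and blue cones was not called (0.70, SE 0.40, adjusted p = 1). The neighbour at -3482 (chrX:74123885-74124084) was at 0 in both ON-BC libraries and at 29.6 and 19.5 in OFF-BC (-4.65, SE 0.49, adjusted p = 0.000162), and at 53.7 and 41.3 in rods.

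Around Opn1sw, 6 further regions were counted. At -2161 blue cones held 64.8 and 45.5 normalized counts, green cones 17.7 and 19.7, and rods 0 in both libraries (rods minus blue cones -5.79, SE 0.58, adjusted p = 8.57e-06). At +7140, in an intron of the neighbouring gene Calu, blue cones held 36.3 and 37.6, OFF-BC 16.2 and 20.4, and green cones 0 in both. That was the only opsin region called between blue and green cones (5.24, SE 0.71, adjusted p = 0.0192), where 0.0904% of all regions were called and 0.0277% were more open in blue cones, and the call was lost when any of the 4 cone libraries was left out (adjusted p up to 0.195). DESeq2 gave no adjusted p for it. At -7707 blue cones held 51.8 and 76.6 and no other library over 19.5.

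**Figure D5:**
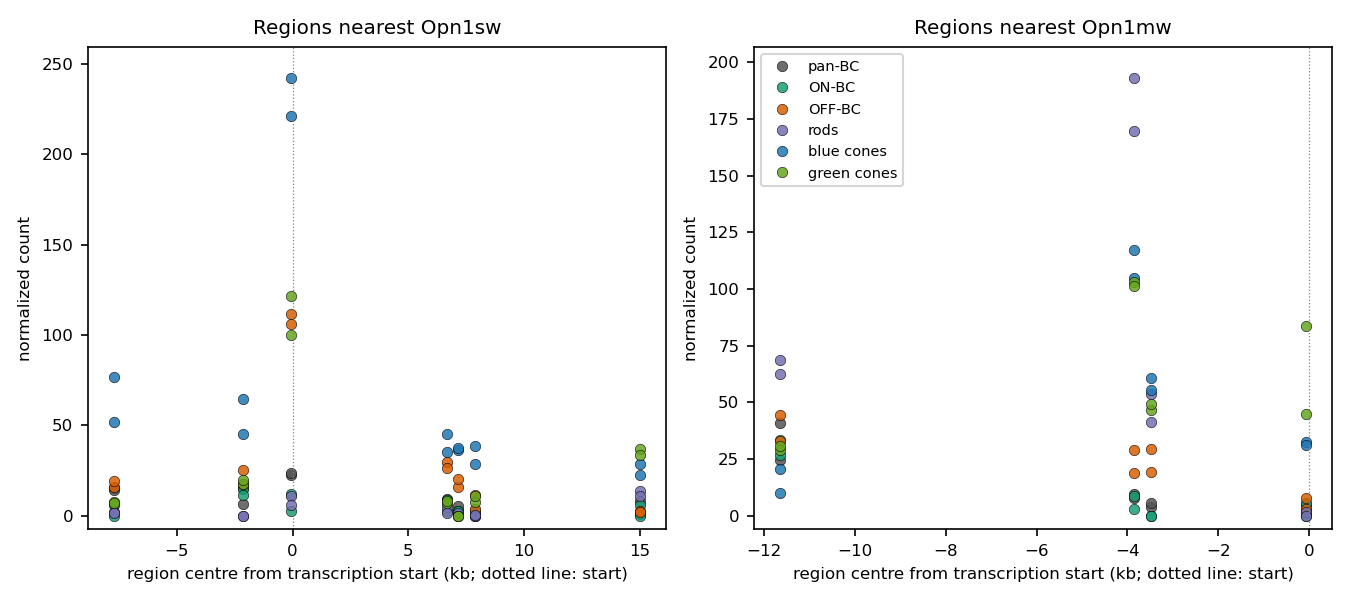
Normalized ATAC-seq counts at the 7 regions nearest Opn1sw and the 4 nearest Opn1mw, against the distance of the region centre from the transcription start in kilobases, with 1 point per library coloured by population. The regions near Opn1sw are highest in blue cones at 6 of 7 places, and rods are highest at the Opn1mw region at -3852 (170 and 193).

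The Rgr start was more open in bipolar cells than in photoreceptors. The region at -204 (chr14:37049119-37049318) held 114 and 234 normalized counts for pan-BC, 106 and 190 for ON-BC, and 71.4 and 88.6 for OFF-BC. Green cones held 23.1 and 39.4 there, blue cones 2.59 and 4.34, and rods 0 and 3.39. Every bipolar library lay above every photoreceptor library. Pan-BC exceeded rods by 6.30 (SE 0.57, adjusted p = 4.19e-07) and blue cones by 5.23 (SE 0.57, adjusted p = 1.51e-05), and green cones exceeded rods by 3.90 (rods minus green cones -3.90, SE 0.57, adjusted p = 0.00117). For RNA, rods and pan-BC overlapped at Rgr, so rods held 17.3 to 64.0 normalized counts of transcript with the promoter region at 0 and 3.39. ON-BC and OFF-BC did not differ past the threshold (0.83, SE 0.57, adjusted p = 1).

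The Opn3 start (-179, chr1:175692712-175692911) was open in every library, at 846 to 1134 normalized counts, and the log2 difference furthest from 0 was -0.10 (ON-BC minus OFF-BC). Rods and blue cones, with almost no Opn3 read, lay in the same range there as bipolar cells. The Rrh region at -998 (chr3:129823404-129823603) ranged from 20.2 to 55.6 and was called in no comparison. Opn4 had no counted region at its start, and its 6 regions were centred from -27915 to +4086. The intronic region at +4086 (chr14:34595957-34596156) stood at 44.8 and 45.0 for pan-BC, 53.8 and 60.0 for ON-BC, 26.9 and 23.4 for OFF-BC, and 0 and 2.71 for rods (pan-BC minus rods 4.58, SE 0.69, adjusted p = 0.000142). At -11638 rods were highest instead, with 375 and 348 against 39.2 and 33.6 in pan-BC (-3.28, SE 0.29, adjusted p = 2.65e-06). Opn4 transcript in bipolar cells and rods was at most 7.18 normalized counts.

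Peaks had been called in each library. In a window from 1000 bp upstream to 100 bp downstream of the start, 50 of 84 library and gene pairs held a peak. Opn3 had 1 in all 14 libraries (-log10 q from 145 to 586) and Opn4 in none. Opn1sw had a peak in 10, missing in both ON-BC and both rod libraries. Its -log10 q was 68.5 and 98.0 in blue cones, 25.8 and 22.7 in OFF-BC, 44.1 and 21.5 in green cones, 6.16 and 33.1 in double-sorted green cones, and 4.01 and 7.95 in pan-BC. Opn1mw had a peak in 5, all 4 green cone libraries (28.5, 4.15, 4.52 and 14.2) and blue cone replicate 2 (7.71). Rgr had 1 in all 6 bipolar libraries and in 3 of 4 green cone libraries, and Rrh in 12 of 14, near the outer edge of the window. With a -log10 q of at least 10, 37 pairs remained. The libraries differed in their number of peaks (29410 to 94468), so a missing peak is weaker evidence in libraries with few.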

How the data were processed

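Per the labels and the study's methods, cDNA for the bipolar libraries was made with the SMARTer Ultra Low RNA kit. The authors aligned RNA reads to GRCm38 with STAR 2.7.0d with HTSeq 1.9 counting on the RefSeq models, and for ATAC-seq used Bowtie2, SAMtools, Picard 2.19.0 and MACS2 2.1.1, the last in each library. The signal values of the deposited tables are normalized counts: reads divided by 1 size factor per library (0.817 to 1.35 for RNA, 0.670 to 1.75 for ATAC). The reads were recovered, whole within 0.01 of a read for all 230384 gene values and 1212862 region values above 0. The authors' peak files list a score, the fold enrichment, the −log10 p and −log10 q, and the summit position for each peak.

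Features with low counts were removed with edgeR's filterByExpr (14024 of 24062 genes, 108448 of 110715 regions). Limma 3.58.1 in R 4.3.3 fitted log2(normalized count + 1) with 1 level per population over all libraries of an assay, and treat tested against a log2 fold change of 1 (trended prior, Benjamini-Hochberg within a comparison, threshold 0.05), the fold and threshold of the study, which used DESeq2. edgeR 4.0.16 and DESeq2 1.42.0 on the recovered reads were alternatives, with a pseudocount of 0.5, no filter, other scalings, each library left out, a test against no change and a replicate block. The study's rule on photoreceptor carry-over was not applied to the counts. On simulated counts, limma recovered, for ON-BC against OFF-BC, 87 of 100 genes with 4-fold and 99 of 100 with 16-fold changes, and for regions 22 and 100. The changed features were drawn above a floor on mean reads that Opn3, Opn4 and Rrh did not reach, so these rates do not cover them. Nothing states whether replicates were separate litters, and p-values measure the spread between these libraries. A pan-BC RNA library came from the retinas of 1 mouse and an ON-BC or OFF-BC library from 2. Opn1sw shares 5 exon bases with Calu on the opposite strand. The members and gene lists were chosen with earlier results of these data known. The named genes were the 6 opsins, the 3 genes most correlated with each, Nrl, and Gnat2, Arr3, Pde6h, Gnat1, Lrat, Rdh5, Rlbp1, Plcb4 and Trpc7. Ttr was named as a likeness gene. Pde6c, Cnga3, Gngt2, Gnb3, Cngb3, Slc24a2, Sag, Pde6g, Pttg1, Tuba1c, Pou4f1, Pou4f2 and Thy1 were named after their values were seen. Intervals and floors cover counting error only.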

Additional observations from a re-analysis of the deposited data

How the results depend on the processing

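Under other settings, 372 values of opsin genes kept their side of the threshold (9 of them, not called in either fit, had the other sign), 9 passed it newly and 14 no longer passed it. For opsin regions the numbers were 1564 (53 with the other sign), 73 and 32, and no called value changed sign. Testing against no change called 11156 genes between pan-BC and rods, 10704 between pan-BC and blue cones, 8068 between rods and blue cones, 3783 between ON-BC and OFF-BC, 853 between pan-BC and ON-BC, and 2922 between pan-BC and OFF-BC (6112, 5092, 2231, 919, 149 and 473 as reported). For regions it called 66171 between pan-BC and blue cones, 37557 between rods and blue cones, 43268 between rods and green cones, 4782 between blue and green cones, and 26416 between ON-BC and OFF-BC (38966, 10871, 12159, 98 and 8010 as reported), as the smaller null demands.

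edgeR called 754 genes between pan-BC and OFF-BC, and 19112, 21910, 915 and 12927 regions for rods against blue cones, rods against green cones, blue against green cones, and ON-BC against OFF-BC. DESeq2 called 4791 regions for the last, and a pseudocount of 0.5 gave 57 regions between blue and green cones. The cause was not tested. With 1 library left out, genes called were 5833 to 5959 (pan-BC and rods), 4760 to 5022 (pan-BC and blue cones), 2029 to 2376 (rods and blue cones), 790 to 882 (ON-BC and OFF-BC), 118 to 156 (pan-BC and ON-BC) and 349 to 499 (pan-BC and OFF-BC). Regions called were 47228 to 50800, 27793 to 33645, 7051 to 8340, 6663 to 9776 (rods and green cones), 5 to 145 (blue and green cones) and 4014 to 5950 (ON-BC and OFF-BC). Leaving out blue cone replicate 1 gave 7051 between rods and blue cones and 33 between blue and green cones, green cone replicate 2 gave 6663 and 5, green cone replicate 1 gave 53 and blue cone replicate 2 gave 145 for the latter, and for ON-BC against OFF-BC OFF-BC replicate 1 gave 4014 and ON-BC replicate 2 gave 4824. Lone samples were assumed to vary like the other groups.

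Scaling by library totals moved the genes higher and lower in pan-BC from 3901 and 2211 to 4497 and 1578 against rods, and from 3177 and 1915 to 3699 and 1462 against blue cones. Regions more open in ON-BC and OFF-BC went from 4972 and 3038 to 3702 and 3477 with TMM and to 3680 and 4056 with library totals. ON-BC and OFF-BC libraries with the same replicate number came from mice of the same line and the same postnatal day (43, 48 and 42 for RNA, 42 and 46 for ATAC), but no source used here says that they shared animals, and whether they are pairs is not known. Deviations of same-numbered libraries correlated at -0.08, 0.22 and -0.06 for RNA and under 0.001 for ATAC. With a replicate block, 907 genes and 8425 regions were called, and the block changed no opsin call. Groups of 2 or 3 libraries leave few degrees of freedom, and low counts limit Opn3, Opn4, Rgr and Rrh.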
